A study of Mus musculus with 21 samples.

Results

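Fibrinogen and the coagulation and fibrinolysis factors made by hepatocytes were examined in genome-wide maps of estrogen receptor alpha (ERα) binding from liver and fat of CD-1 mice. The gene set held 10 of the 21631 protein-coding genes of the RefSeq gene table: the 3 fibrinogen chains Fga, Fgb and Fgg, the procoagulant factors F2, F5, F7 and F12, the anticoagulants Serpinc1 and Proc, and the fibrinolytic zymogen Plg. The genes were chosen by name. A binding peak was assigned to a gene when its summit lay inside the gene's mm10 span or within 25 kb of it, and a peak close to several of the genes was counted once. By this rule 38 peaks were assigned over the 5 lists. Binding was measured by chromatin immunoprecipitation followed by sequencing (ChIP-seq) with the antibody sc543, and 1 peak list was used for each group.

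All mice were of the CD-1 strain and 10 weeks old. The liver group (Liver, 2 libraries), the subcutaneous white fat group (scWAT, 3 libraries), the brown fat group (BAT, 1 library) and the visceral white fat group (vWAT, 4 libraries) had received estradiol. A second vWAT group (2 libraries) had received vehicle, and it was the reference for vWAT with estradiol. The labels used here do not give the dose, the route or the time of treatment, nor say whether the libraries came from separate animals. No liver list without estradiol was analysed here, so whether the Liver peaks depend on estradiol cannot be told. The lists with estradiol differ in tissue, while Liver and vWAT with vehicle differ in both tissue and hormone.

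As background, fibrinogen is assembled in hepatocytes from its alpha, beta and gamma chains and is cleaved by thrombin, the active form of the F2 product, into the fibrin of a clot. Antithrombin (Serpinc1) and activated protein C (Proc) limit thrombin formation and activity, and plasmin, made from plasminogen (Plg), dissolves fibrin. Oral estrogens are known to alter plasma levels of several of these proteins in humans, and ERα is the main estrogen receptor of liver.

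The lists held 21411 (Liver), 17971 (scWAT), 5193 (BAT), 20715 (vWAT with estradiol) and 7400 (vWAT with vehicle) peaks on the autosomes and X. Each peak carried a value of the authors that was taken as fold enrichment. It is used here to rank peaks within a list, with the strongest peak near 0% and the weakest at 100%. Enrichment is also printed for single peaks and as a median within a list. Its levels are not to be compared between lists, which differ in library number. The lists give no values per library and no depth, so no difference between groups could be tested. All peaks come from whole tissue, and binding in one cell type cannot be told apart from binding in another. Over all protein-coding genes, 67.5% had a peak in Liver, 61.0% in scWAT and 29.7% in BAT. In vWAT the share was 61.5% with estradiol and 44.8% with vehicle. The marker counts that follow are small, many lie near these shares, and they do not identify the cell type bound. Of 6 hepatocyte marker genes, 5 had a peak in Liver, 1 had one in vWAT with estradiol, and none had one in scWAT, BAT or vWAT with vehicle. Of 5 white adipocyte markers, 3 had a peak in Liver, 4 in scWAT, 1 in BAT, 5 in vWAT with estradiol and 2 in vWAT with vehicle. Of 5 brown adipocyte markers, 3 had a peak in BAT, 3 in vWAT with estradiol, 2 in Liver, 1 in scWAT and 1 in vWAT with vehicle. The defining marker Ucp1, the uncoupling protein of brown fat, had no peak in BAT. Of 4 endothelial markers, 2 had a peak in Liver, 1 in scWAT, 1 in BAT, 2 in vWAT with estradiol and 2 in vWAT with vehicle. Of 3 macrophage markers, 3 had a peak in Liver, 2 in scWAT, 1 in BAT, 2 in vWAT with estradiol and 1 in vWAT with vehicle.

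All 10 coagulation genes had an ERα peak in Liver. This compares with 67.5% of all protein-coding genes, and with 73.5% of the 11614 genes whose spans lie within the members' range of 7.33 to 68.4 kb. In scWAT 5 of the 10 had a peak (Fga, Fgb, F2, F5 and Proc), against 61.0% of all genes. In BAT 3 of the 10 had a peak (F2, Proc and Plg), against 29.7% of all genes. In vWAT with estradiol 4 of the 10 had a peak (F2, F5, F12 and Plg), against 61.5% of all genes. In vWAT with vehicle 3 of the 10 had a peak (F2, F5 and F12), against 44.8% of all genes. The share of the 10 genes with a peak was thus above the share of all genes in Liver, close to it in BAT, and below it in the other fat lists.

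Of the 10 genes, 9 had a Liver peak that overlapped no peak of the other 4 lists, against 47.9% of all genes. F12 was the exception. With shared peaks counted for each gene they lie near, the 10 genes had a median of 3 Liver peaks per gene, against 1 both for the genes of like span and for all genes. The fibrinogen genes share their peaks, and the 19 distinct Liver peaks are fewer than these counts sum to. The strongest Liver peak of each gene had a median rank of 23.2%, against 19.1% for the genes of like span and 20.9% for all genes with a Liver peak. When each peak was given only to its nearest protein-coding gene, 7 of the 10 kept a Liver peak, against 48.4% of all genes, and Fgb, F7 and F12 did not. Under the same stricter rule 2 of the 10 had a scWAT peak (background 41.9%), 1 had a BAT peak (16.7%), 3 had a peak in vWAT with estradiol (42.8%) and 2 had one in vWAT with vehicle (26.7%).

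**Figure D1:**
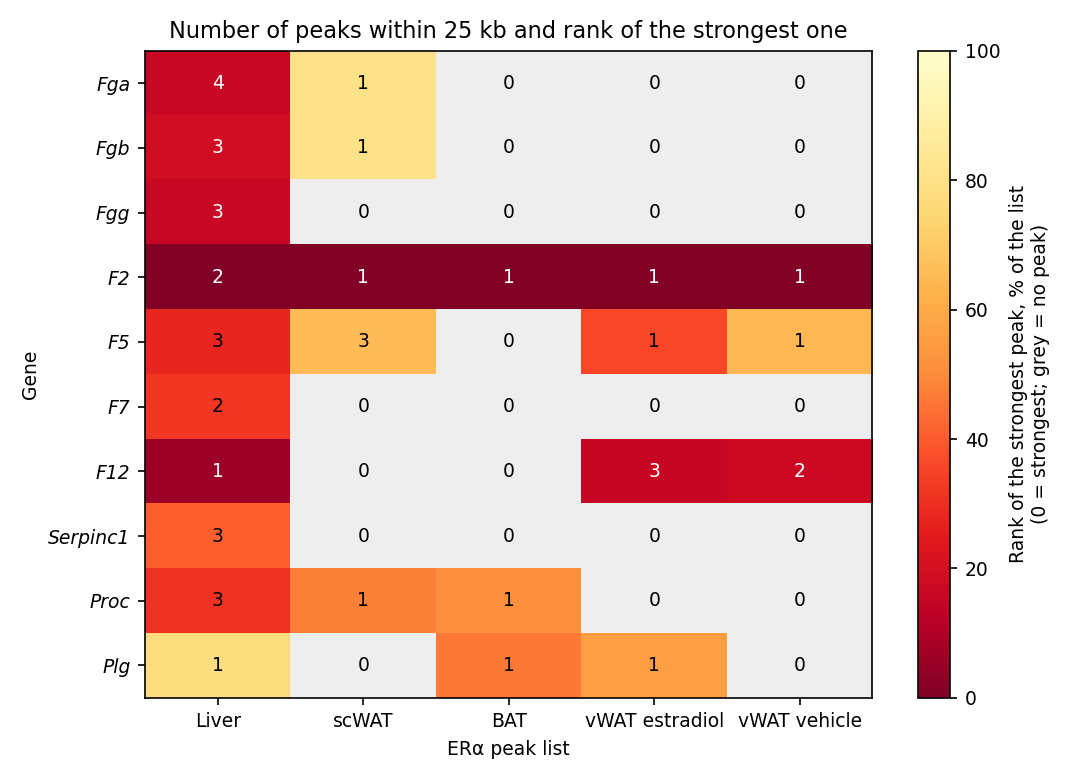
ERα peaks assigned to each of the 10 genes in each of the 5 lists, with the number of summits inside the gene or within 25 kb and the within-list rank of the strongest one (0% strongest). Every gene has a Liver peak, while 5, 3, 4 and 3 of the 10 have one in scWAT, BAT, vWAT with estradiol and vWAT with vehicle.

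The fibrinogen genes lie side by side on chromosome 3 in a stretch of 42.1 kb: Fgg at chr3:83007724-83015056 and Fga at chr3:83026153-83033627 on the plus strand, and Fgb at chr3:83042246-83049863 on the minus strand. The 3 genes shared 4 Liver peaks. Fga was within 25 kb of all 4, and Fgg and Fgb were within 25 kb of 3 each. The cluster had 1 scWAT peak and no BAT or vWAT peak.

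The promoters of the 3 fibrinogen genes and of a neighbour, the splicing factor gene Plrg1, are shown because the Liver list has peaks over 2 of them. Each line gives the 250 bases before the RefSeq start site in GRCm38.p6, read along the gene's own strand, and capitals mark the bases GGTCA, 1 arm of the estrogen response element, or the HNF1 core GTTAAT, on either strand. The windows are chr3:83025903-83026152 (plus strand) for Fga, chr3:83049864-83050113 (minus strand) for Fgb, chr3:83007474-83007723 (plus strand) for Fgg and chr3:83055288-83055537 (plus strand) for Plrg1.
Fga: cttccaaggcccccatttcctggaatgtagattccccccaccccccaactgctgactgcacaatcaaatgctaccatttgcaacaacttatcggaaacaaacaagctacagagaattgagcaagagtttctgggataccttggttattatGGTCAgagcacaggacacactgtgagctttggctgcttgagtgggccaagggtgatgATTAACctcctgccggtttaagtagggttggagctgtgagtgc
Fgb: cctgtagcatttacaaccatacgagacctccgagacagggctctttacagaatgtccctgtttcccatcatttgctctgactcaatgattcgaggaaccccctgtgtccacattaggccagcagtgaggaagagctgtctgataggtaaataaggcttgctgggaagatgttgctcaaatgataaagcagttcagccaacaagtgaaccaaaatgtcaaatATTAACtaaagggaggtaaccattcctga
Fgg: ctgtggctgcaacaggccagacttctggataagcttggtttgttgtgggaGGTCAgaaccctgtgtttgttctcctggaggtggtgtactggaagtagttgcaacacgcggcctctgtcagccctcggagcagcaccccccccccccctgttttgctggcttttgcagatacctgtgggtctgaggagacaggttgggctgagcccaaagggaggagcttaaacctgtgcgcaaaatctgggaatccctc
Plrg1: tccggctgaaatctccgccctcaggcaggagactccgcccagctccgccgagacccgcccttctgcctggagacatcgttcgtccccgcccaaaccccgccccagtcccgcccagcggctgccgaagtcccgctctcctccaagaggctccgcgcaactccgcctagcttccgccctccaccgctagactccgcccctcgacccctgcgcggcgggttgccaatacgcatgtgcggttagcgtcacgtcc

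A Liver peak at chr3:83025943-83026248 lay over the Fga start, with its summit 62 bp inside the gene. It covered 210 of the 250 promoter bases printed above for Fga, including the GGTCA match 100 to 96 bases before the start and the HNF1 match 43 to 38 bases before it. Its enrichment was 3.63, at rank 53.9% of the Liver list, with a −log10 q of 1.77. Fga encodes the fibrinogen alpha chain and was the one gene of the 10 with a summit within 1 kb of a start site given in the promoter table.

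The other Liver peaks of the cluster were stronger and lay outside the fibrinogen genes. The peak with its summit 4.38 kb before Fgg, the gamma chain gene, had an enrichment of 5.49 and a rank of 16.3%. The peak between Fgg and Fga, 5.37 kb from Fgg and 5.73 kb from Fga, had an enrichment of 4.56 and a rank of 30.4%. These 2 peaks and the Fga promoter peak overlapped no peak of the fat lists.

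The remaining Liver peak, with an enrichment of 5.28 and a rank of 18.4%, had its summit 13 bp from the start of Plrg1 and 5.69 kb from Fgb, the beta chain gene. It was the one fibrinogen peak also found in fat. The scWAT peak there had an enrichment of 2.87 and a rank of 80.9%, with its summit 48 bp from that of Liver. The Liver peak covered 191 of the 250 Plrg1 promoter bases and the scWAT peak covered 88. The scWAT counts for Fga and Fgb rest on this Plrg1 peak alone.

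**Figure D2:**
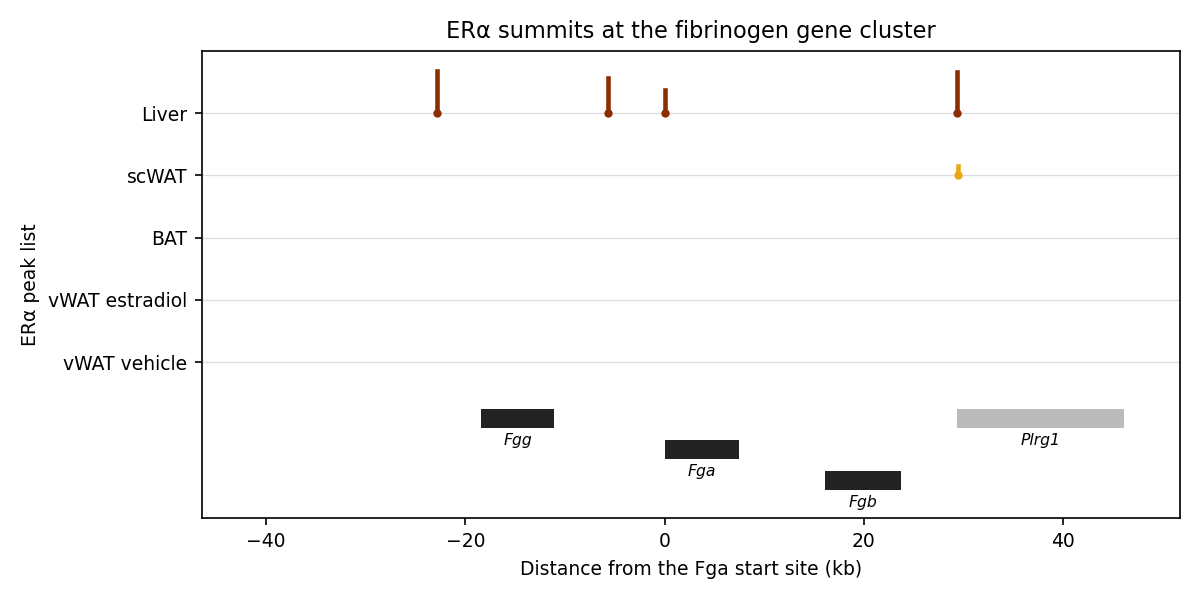
ERα summits over the fibrinogen cluster, by distance in kb from the Fga start site, with 1 row per list, stem height giving within-list strength and genes drawn below to scale. The Liver row has 4 summits, the scWAT row has 1, at Plrg1, and the BAT and vWAT rows have none.

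F2 (prothrombin, chr2:91612397-91636457, minus strand) had the strongest peak of the whole gene set, but it lay 13.5 kb away at the starts of Zfp408 and Arhgap1, which are transcribed away from each other. The Zfp408 promoter is shown because this was the one peak near the 10 genes that was found in all 5 lists. The window is the 250 bases before the Zfp408 start, chr2:91649792-91650041 on the minus strand of GRCm38.p6, which the peak of every list covered in full, and it holds no complete match to the motifs searched. The peak of every list also covered the promoter of Arhgap1, where an HNF1 core lies 80 to 75 bases before the first start.
Zfp408: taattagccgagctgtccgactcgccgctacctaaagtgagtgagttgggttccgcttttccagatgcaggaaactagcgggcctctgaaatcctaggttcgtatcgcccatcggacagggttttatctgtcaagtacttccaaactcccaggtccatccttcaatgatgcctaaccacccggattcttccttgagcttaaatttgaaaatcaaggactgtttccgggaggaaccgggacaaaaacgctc

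The enrichment of this peak was 22.13 in Liver, at rank 0.0467%. It was 16.33 in scWAT, at rank 0.339%, and 13.48 in BAT, at rank 0.578%. In vWAT it was 21.48 with estradiol, at rank 0.0772%, and 21.75 with vehicle, at rank 0.257%. The peak was among the strongest 1% of every list, with and without hormone. All F2 counts outside Liver rest on it.

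Within F2 itself there was a single peak, and only in Liver. It lay at chr2:91618528-91618825, had an enrichment of 4.06 and ranked at 44.3%. Its summit fell where the F2 span overlaps that of Ckap5, a microtubule-associated protein gene.

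F5 (coagulation factor V, the cofactor of prothrombin cleavage, chr1:164151835-164220277, plus strand) was the longest of the 10 genes and had peaks in 4 of the 5 lists. In Liver 1 summit lay 1.28 kb past the F5 start, with an enrichment of 4.68 and a rank of 28.1%. Another Liver summit inside the gene had an enrichment of 3.33 and a rank of 57.4%, and another, 10.5 kb before the gene within Selp, the P-selectin gene, ranked at 98.7%. None of the 3 Liver peaks overlapped a fat peak.

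One site inside F5 had a peak in scWAT and in vWAT with estradiol, and none in BAT. In vWAT with estradiol the peak at chr1:164184409-164184774 had an enrichment of 5.61 and a rank of 35.7%. The scWAT peak at chr1:164184321-164184724 had an enrichment of 3.09 and a rank of 65.6%, with its summit 150 bp from that of vWAT with estradiol. These summits were 2.76 and 2.91 kb from the nearest Liver summit, and vWAT with vehicle had no overlapping peak.

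The vehicle list had another F5 peak, with an enrichment of 4.32 and a rank of 64.1%, that no other list shared. scWAT had 2 further peaks in the F5 window, 1 in Selp at rank 96.4% and 1 at rank 71.0%, 22.8 kb past F5 and 5.97 kb from Slc19a2, a thiamine transporter gene. Apart from the one site shared by scWAT and vWAT with estradiol, each list with an F5 peak had it at a different place.

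F7 (coagulation factor VII, which starts the tissue factor pathway, chr8:13025506-13035809, plus strand) had 2 peaks in Liver and none in fat. The nearer summit lay 0.958 kb past the end of F7 and 541 bp before the start of F10, the gene of coagulation factor X, with an enrichment of 4.47 and a rank of 32.4%. The other lay 21.7 kb past F7, just beyond F10 and before Proz (protein Z), with an enrichment of 4.03 and a rank of 47.3%. F10 was the nearest gene of both, so the F7 count rests on its neighbourhood with F10.

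F12 (coagulation factor XII, which starts contact activation, chr13:55417958-55426804, minus strand) had a single Liver peak, which was also in both vWAT lists. It lay at the start of Grk6, a G protein-coupled receptor kinase gene, 18.3 kb from F12. The Grk6 promoter is shown for that reason. The 250 bases before the first RefSeq start of Grk6 lie at chr13:55444822-55445071 on the plus strand of GRCm38.p6. The Liver peak covered 221 of them, both vWAT peaks covered all 250, and the window holds none of the motifs searched. All 3 peaks reached past this window over a GGTCA match 101 to 97 bases before a later Grk6 start, and the peak of vWAT with estradiol also covered a forkhead match 47 to 41 bases before that start.
Grk6: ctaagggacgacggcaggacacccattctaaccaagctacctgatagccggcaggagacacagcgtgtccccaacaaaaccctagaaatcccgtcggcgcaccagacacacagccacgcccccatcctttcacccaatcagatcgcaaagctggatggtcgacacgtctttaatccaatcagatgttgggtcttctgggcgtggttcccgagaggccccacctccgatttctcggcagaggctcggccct

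The enrichment of the Grk6 peak was 8.13 in Liver, at rank 5.86%. In vWAT it was 8.32 with estradiol, at rank 15.8%, and 8.55 with vehicle, at rank 17.5%. The 3 summits lay within 10 bp of each other.

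Closer to F12, vWAT with estradiol had a summit 2.63 kb before the gene, with an enrichment of 3.04 and a rank of 99.0%, near the end of its list. A further vWAT peak with estradiol, inside Grk6 and 23.4 kb from F12, ranked at 95.3%. vWAT with vehicle had a summit inside F12, with an enrichment of 3.89 and a rank of 79.6%. None of these 3 overlapped a peak of another list, and Liver had no peak inside F12.

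Serpinc1 (antithrombin, chr1:160978583-161002543, plus strand) had 3 peaks in Liver and none in any fat list. The peak inside the gene had an enrichment of 4.15 and a rank of 40.7%. The peak 2.62 kb past its end, within Zbtb37, a zinc finger gene, had the same enrichment and rank. The last lay 9.71 kb before the gene, within Rc3h1, an RNA-binding protein gene, with an enrichment of 3.33 and a rank of 57.4%.

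Proc (protein C, chr18:32123126-32139570) had a Liver peak inside the gene with an enrichment of 4.43 and a rank of 32.9%, which no fat list shared. A second Liver peak, 5.89 kb from the gene, had an enrichment of 4.56 and a rank of 30.5%. It overlapped a scWAT peak with an enrichment of 3.51 and a rank of 47.6%, whose summit was 124 bp away. Among the 10 genes this was the one Liver and fat overlap whose nearest gene was the coagulation gene itself.

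At the far edge of the Proc window, Liver had a peak at rank 77.0% and BAT had one just past the middle of its list. Both lay at Map3k2, a kinase gene, 23.5 and 24.7 kb from Proc, and they did not overlap. The BAT count for Proc rests on that peak.

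Plg (plasminogen, chr17:12378609-12419384) had 1 peak in each of 3 lists, at 3 different places. The Liver peak lay 12.6 kb from the gene, with an enrichment of 3.31 and a rank of 77.7%, the weakest best Liver peak of the 10 genes. Its −log10 q was 1.29, and Plg was the gene without a Liver peak at a −log10 q of at least 2. The BAT peak lay inside the gene, with an enrichment of 4.38 and a rank of 46.3%. The peak in vWAT with estradiol lay 6.23 kb away, with an enrichment of 4.59 and a rank of 56.1%, and vWAT with vehicle had none.

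**Figure D3:**
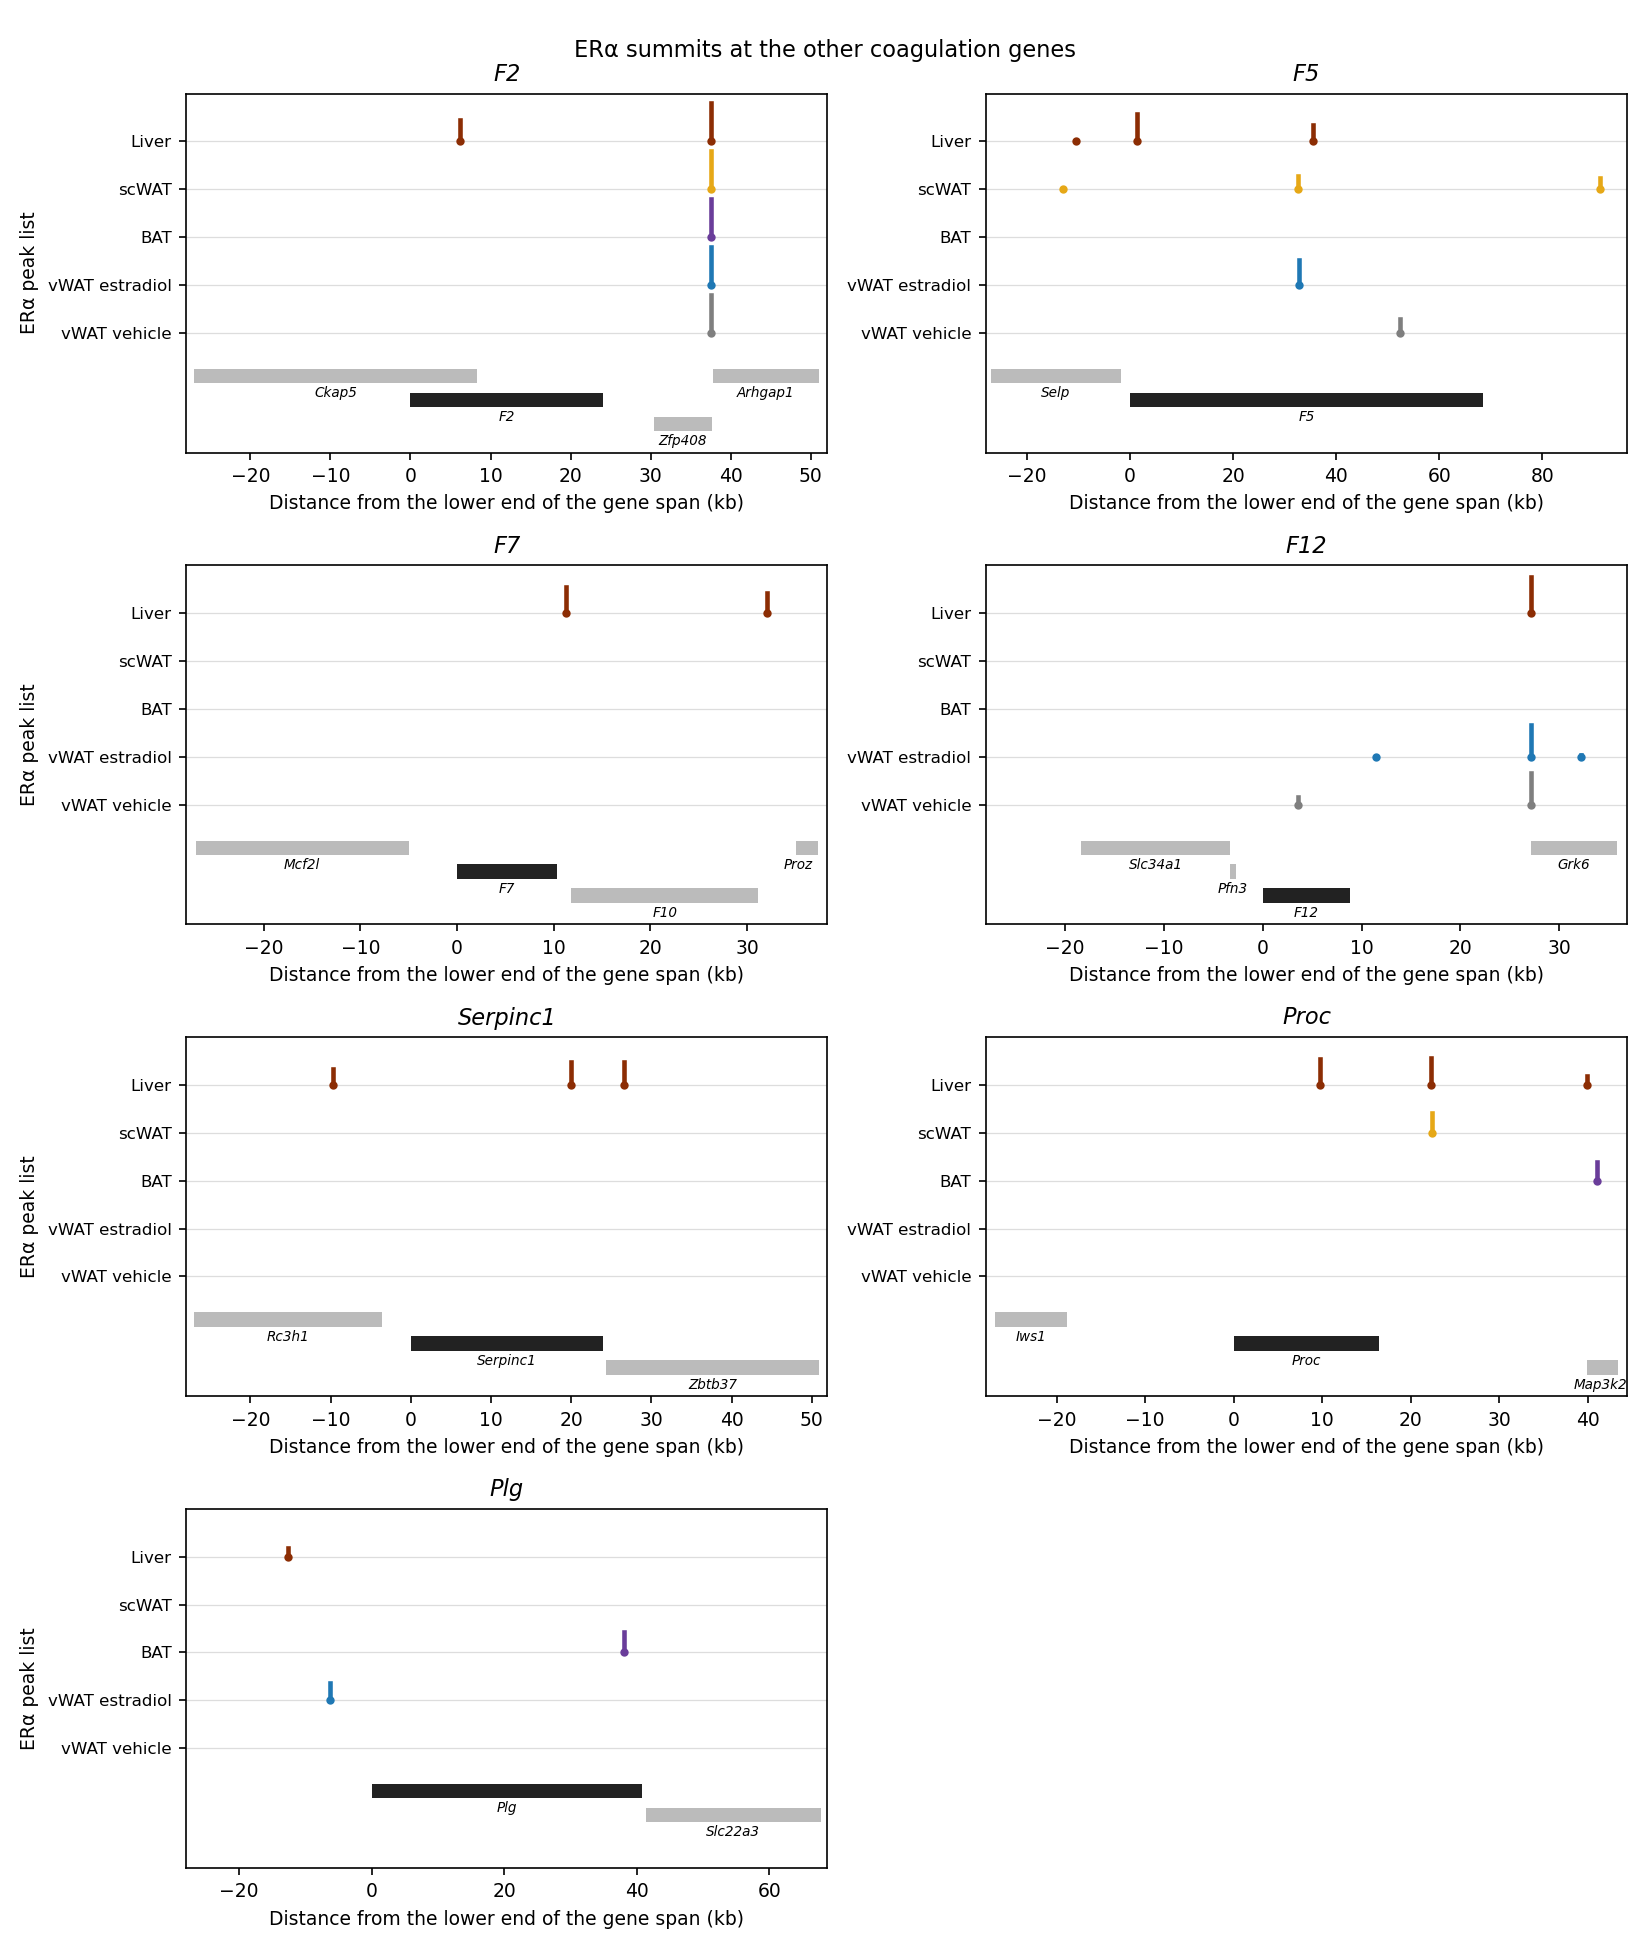
ERα summits around the 7 coagulation genes outside the fibrinogen cluster, by distance in kb, with 1 row per list and stem height giving within-list strength. The tall stems near F2 and F12 stand at Zfp408 and Grk6, 13.5 and 18.3 kb away, and F7 and Serpinc1 have summits in the Liver row only.

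In Liver, 15 of the 19 distinct peaks near the 10 genes (78.9%, Wilson 95% interval 56.7 to 91.5%) overlapped no peak of another list, against 71.4% (70.8 to 72.0%) of all Liver peaks. The intervals cover counting error only, and they overlap. The 4 shared Liver peaks were those at Plrg1, at Zfp408, at Grk6 and 5.89 kb from Proc. Of the 19, 6 had their summit inside one of the 10 genes, 10 had one of the 10 as the nearest gene, and 4 had it within 1 kb of a start, given in the promoter table, of another gene.

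The 19 Liver peaks ranked between 0.0467 and 98.7%, with a median of 40.7%, and 13 had a rank of 50% or less. Of the 19, 2 were among the strongest 10%, those at Zfp408 and Grk6, which is close to the 10% set by the definition. A −log10 q of 2 or more was reached by 11 of the 19 (57.9%), against 46.4% of all Liver peaks. Enrichment had a median of 4.15 over these 19 and 3.91 over the list.

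In each fat list the peaks near the 10 genes were fewer than in Liver, but the lists differ in length. With every list cut to the length of the BAT list by −log10 p, Liver kept 4 such peaks. At that length scWAT had 1, BAT 3, vWAT with estradiol 2 and vWAT with vehicle 3. In the full lists, the 6 scWAT peaks had a median rank of 68.3% and the 3 BAT peaks 46.3%. The 6 peaks of vWAT with estradiol had a median rank of 45.9%, and the 4 peaks of vWAT with vehicle 40.8%. In each of the 4 fat lists 1 of these peaks was among the strongest 10%, the one at Zfp408.

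**Figure D4:**
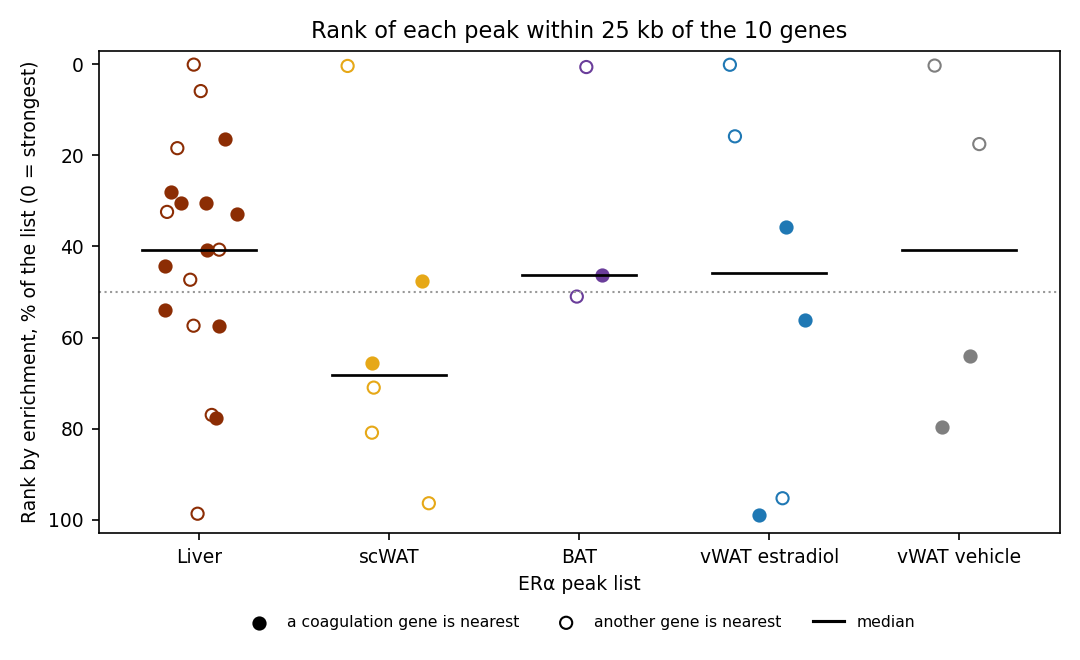
Within-list rank of every peak near the 10 genes, with 1 column per list and the median marked. The 19 Liver ranks spread from 0.0467 to 98.7% with a median of 40.7%, and in every list the strongest of these peaks is the one at Zfp408.

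The effect of estradiol on binding could be compared in vWAT alone. There were 6 peaks near the 10 genes in vWAT with estradiol and 4 in vWAT with vehicle, of which 2, at Zfp408 and Grk6, were in both. The shared peaks were 33.3% of the 6 (22.7% for the whole estradiol list) and 2 of the 4 with vehicle (63.8% for the whole vehicle list). The peaks with estradiol only were the F5 peak shared with scWAT, the Plg peak and 2 in the F12 window. Those with vehicle only were inside F5 and inside F12.

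The estradiol list is the longer one. When the 7400 strongest peaks by −log10 p were kept of each list, 2 peaks near the 10 genes were left with estradiol and 4 with vehicle, and 0 were in the estradiol list alone. When the limit was set by enrichment, with ties kept, 3 were left with estradiol and 4 with vehicle, and 1, the F5 peak, was in the estradiol list alone. That peak ranked 7391 by enrichment, close to the limit. In both cases the 2 vehicle peaks inside F5 and F12 remained in the vehicle list alone. By −log10 p, 2 of 2 estradiol peaks and 2 of 4 vehicle peaks were shared, against 39.8% and 40.1% of all peaks kept. By enrichment these were 2 of 3 and 2 of 4, against 38.5% and 39.4%. With so few peaks, no difference from the whole lists can be read from these counts.

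Of the 10 genes, 8 had an entry in the promoter table, and Proc and Plg had none. The full estrogen response element, spelled GGTCANNNTGACC, was in none of the 8 windows of 250 bases, and it was in 0.0475% of the 21045 windows in the table. A single arm, GGTCA, which is also a part of the full element, was in 6 of the 8 (Fga, Fgg, F2, F5, F7 and F12), against 34.4% of all windows. Of the 8 windows, only that of Fga was overlapped by an ERα peak, and only in Liver. The HNF1 core GTTAAT was in Fga and Fgb, against 5.85% of all windows.

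None of the 8 windows held the forkhead motif TGTTTAC, the C/EBP motif TTGCGCAA or the HNF4 motif CAAAGTCCA, which were in 2.64%, 0.2% and 0.394% of all windows. Both strands were searched. The 8 windows held 2 to 4 CpG dinucleotides each, against a median of 10 over all windows. The neighbours whose starts carried the shared peaks had more, with 28 at Plrg1, 13 at Zfp408 and 16 at Grk6.

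The wider pathway was described with 30 other genes of coagulation and fibrinolysis. A peak was found for 25 of the 30 (83.3%) in Liver, against 67.5% of all genes. In fat the counts were 15 in scWAT (61.0% of all genes), 5 in BAT (29.7%), 17 in vWAT with estradiol (61.5%) and 11 in vWAT with vehicle (44.8%), below the share of all genes in each list. A Liver peak found in no fat list was present for 21 of the 30 (70.0%), against 47.9% of all genes. By role, Liver peaks were found for 8 of 9 procoagulant genes, 2 of 3 contact system genes, 8 of 10 anticoagulant genes, 5 of 6 fibrinolysis genes and both vitamin K cycle genes. The genes with no Liver peak were F13b, Thbd, Plau, Kng1 and A2m.

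The 3 best Liver ranks in the wider pathway were at Vkorc1, Plat and a peak shared by F11 and Klkb1. Vkorc1, the vitamin K epoxide reductase needed for making F2, F7 and Proc active, had a peak at rank 1.06% in Liver and 1.1% in vWAT with estradiol. This peak lay 16.3 kb from Vkorc1, had Zfp668 as its nearest gene and was in all 5 lists. Plat, tissue plasminogen activator, had one at rank 7.13% in Liver and 3.29% in vWAT with estradiol, 22.9 kb away and nearest to Ap3m2.

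F11, the coagulation factor XI gene, had a Liver peak inside it at rank 7.26% that no fat list shared, and the same peak counted for Klkb1, plasma kallikrein, 13.4 kb away. In vWAT with estradiol F8, coagulation factor VIII, had a peak at rank 13.2%, next after Vkorc1 and Plat, 20.1 kb away, nearest to Cmc4 and also in scWAT. F10 and Proz each had 3 Liver peaks, of which 2 were the F7 peaks described above, so these counts are not separate from those of the 10 genes.

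**Figure D5:**
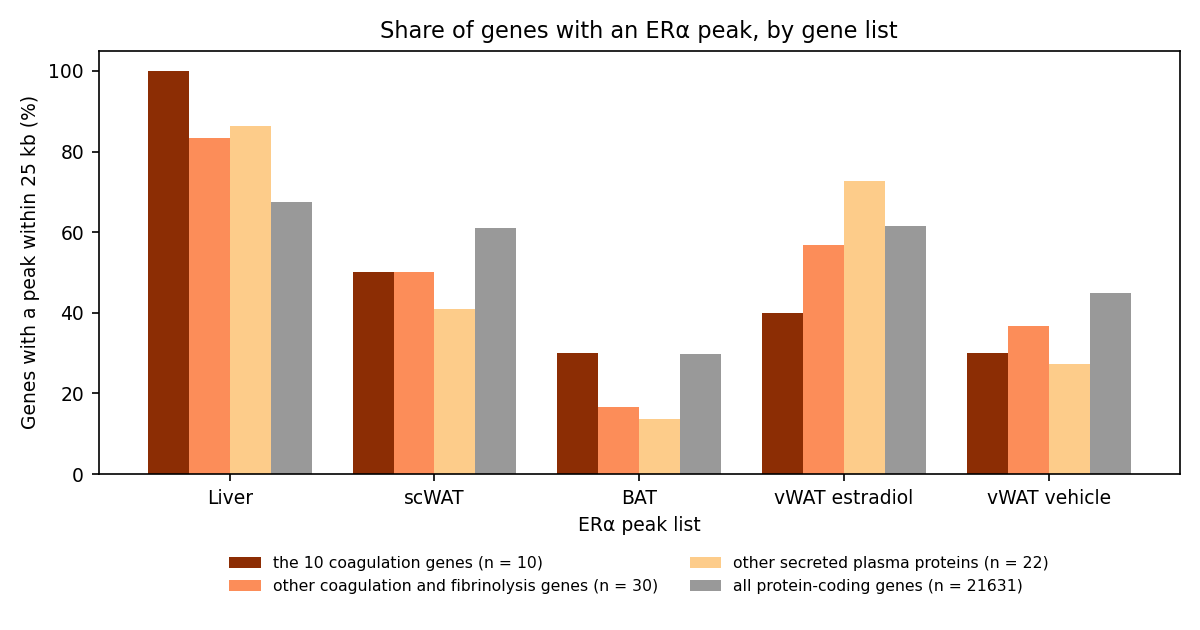
Share of genes with an ERα peak in each of the 5 lists for the 10 coagulation genes, the 30 other genes of the pathway, 22 other secreted plasma proteins and all protein-coding genes. In Liver the shares are 100%, 83.3%, 86.4% and 67.5%, and in BAT they are 30.0%, 16.7%, 13.6% and 29.7%.

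These counts depend on list length and on the distance allowed. When 5193 peaks, the length of the BAT list, were kept of each list by −log10 p, 5 of the 10 genes (Fga, Fgb, Fgg, F2 and F12) had a peak in Liver (35.8% of all genes), 1 in scWAT (27.8%), 3 in BAT (29.7%), 2 in vWAT with estradiol (28.9%) and 3 in vWAT with vehicle (37.3%). The 5 genes in Liver rest on 4 peaks, those at the starts of Plrg1, Zfp408 and Grk6 and the peak 4.38 kb before Fgg. Only the peak before Fgg had one of the 10 genes as its nearest gene. With a distance of 50 kb, 10 of the 10 had a peak in Liver (77.4% of all genes), 9 in scWAT (70.2%), 4 in BAT (39.7%), 7 in vWAT with estradiol (70.5%) and 4 in vWAT with vehicle (54.7%). At 50 kb the scWAT share was thus above that of all genes, not below it.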

How the data were processed

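Peak lists of ERα ChIP-seq from 12 libraries in 5 groups were used, 1 list per group. The other 9 samples, vWAT libraries for H3K27ac and for RNA, were left aside as they hold no ERα peaks. BWA 0.7.12, HOMER and the build mm10 are named, without a role, per the submitters' processing notes. For the peak caller, its settings and the pooling of libraries, nothing is given in the sources used here. In the deposited lists the authors give per peak a fold enrichment (a ratio), a −log10 p-value, a −log10 q-value, a summit offset and a score, which was not used. All columns were mapped to a group.

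Summits were assigned to RefSeq GRCm38.p6 gene spans (the assembly of mm10), on 19 autosomes and X. Rank was taken on enrichment, with ties sharing the best rank. Peaks of 2 lists were called the same at 1 bp of overlap. The enrichment of 3.33 is shared by 4183 Liver peaks, including 1 at F5 and 1 at Serpinc1. The enrichment of the Liver peak near Plg is shared by 1748 Liver peaks. Named were the 10 genes, the nearest genes of their peaks, and in each other gene list the 3 best ranks in Liver and in vWAT with estradiol. The genes, gene lists and comparisons were chosen with earlier results of these data known.

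Counts and ranks were made in Python 3.11.15 with pandas 2.3.3 and numpy 2.4.6, and figures with matplotlib 3.10.9. The counting steps were tested on simulated data. With 1 list per group and depth unknown, no p-value was computed. Alternatives were distances of 10 and 50 kb, distance from the start site, a −log10 q of at least 2, equal list lengths, 2 stricter overlap rules and ranking by −log10 p.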

Additional observations from a re-analysis of the deposited data

How the results depend on the processing

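At 10 kb, Liver had 8 genes and 13 peaks, scWAT 3 genes and 3 peaks, and BAT 1 and 1. At that distance vWAT had 3 peaks with estradiol and 2 peaks with vehicle. At 50 kb, scWAT had 9 genes and 13 peaks and vWAT with estradiol 7 genes and 10 peaks. With distance taken from the start site (8 genes with an entry), Liver had 12 peaks, 9 of them in no other list, scWAT had 3 genes and 3 peaks, BAT 1 and 1, and vWAT with estradiol 2 genes. With a −log10 q of at least 2, Liver had 9 genes (50.6% of all genes) and 11 peaks. Of these peaks, 7 were in no other list. BAT had 1 gene (13.9% of all genes) and 1 peak at that limit. At equal list length, Liver had 5 genes and 4 peaks, 2 of them in no other list. Of these 2, the peak at Plrg1 overlaps a scWAT peak of the full lists that the cut removed. At that length scWAT had 1 and 1, and vWAT with estradiol 2 and 2. The settings that follow were chosen after seeing the data. With the nearest gene only, Liver had 10 peaks, 9 of them in no other list, scWAT had 2 genes and 2 peaks, BAT 1 and 1, vWAT with estradiol 3 peaks and vWAT with vehicle 2 peaks. Without summits within 1 kb of another gene's start, scWAT had 2 genes and vWAT with vehicle 2 peaks. For this setting, for 10 kb and for distance from the start site, the share of all genes is not given here. At equal length in vWAT, 0 peaks (by −log10 p) or 1 (by enrichment) were with estradiol alone, against 4. In all, 40 recomputed values moved and 48 did not. The moved values were lower than the main ones, except those at 50 kb, which were higher. The cause was not tested beyond that. With summits within 100 bp counted as the same peak, 16 Liver peaks were in no other list. Ranking by −log10 p gave the Liver peaks a median rank of 46.1%. Leaving out a library could not be run. No paired analysis was possible because 1 deposited list per group holds no values per library. Depth is unknown, so a gene without a peak had none detectable in that list.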

Other observations

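Other proteins that liver secretes into plasma were described beside the coagulation genes, over 22 genes. A peak was found for 19 of the 22 in Liver (67.5% of all genes), 9 in scWAT (61.0%), 3 in BAT (29.7%), 16 in vWAT with estradiol (61.5%) and 6 in vWAT with vehicle (44.8%). The genes with no Liver peak were Apob, Rbp4 and Ttr. The best Liver ranks were those of C3 (complement component C3) at 0.486%, Hp (haptoglobin, which binds free hemoglobin) at 0.532% and Trf (transferrin, the iron carrier) at 2.18%. In vWAT with estradiol the best ranks were those of Hp at 0.825%, Trf at 3.6% and C3 at 7.07%. These 3 peaks were in all 5 lists, and none had the plasma protein gene as its nearest gene.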
